A study of Rattus norvegicus with 23 samples.

Results

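Interferon response genes are transcripts that cells make more of when interferons, or sensors of viral nucleic acid, signal to the nucleus, and antigen processing genes make the peptides that cells show on MHC class I. The set described here holds 40 rat genes chosen by name: sensors, signal factors, antiviral effectors, the ISG15 system, interferon-inducible GTPases, peptide processing genes and a chemokine. Of these, 39 were found by symbol among 18903 named genes of gastrocnemius RNA sequencing, and all 39 were among the 13365 genes with enough counts to be tested. Xaf1 was not analysed here.

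The muscle came from 23 Wistar rats, with 1 library per rat: 6 Male HFHS, 6 Male Chow, 6 Female HFHS and 5 Female Chow animals. Rats were fed chow or a high fat, high sucrose (HFHS) diet for 14 weeks from 4 weeks of age. Females of the study had their ovaries removed at 12 weeks of age and drank estradiol, apart from a sham-operated subset, and which female had which operation is not in the labels. No operation is described for males, so sex, surgery and hormone replacement cannot be told apart here. Total counts per rat lay between 21152221 and 51305283. Skeletal muscle markers (13 of 15 listed genes tested) summed to between 228703 and 316680 CPM (counts scaled to the library size by the TMM method) in every rat, as the label says, and B cell markers to at most 0.676 CPM.

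The diets of 3 females are given in opposite ways: rat 205 is Chow by its column code and HFHS by its title, and rats 224 and 225 are HFHS by code and Chow by title. The codes were used, and the set's medians and counts that rest on the females are also given with the title diets and without those rats; the levels of single genes in the female groups are by code only. For males the codes, titles and treatment labels gave the same diet. A heat map in the study's paper may carry the male diets the other way round, which was not checked here. Every direction of a diet difference in males, the interaction and both sex comparisons on a diet rest on the deposited male labels. Hepatocyte markers, 25 tested genes, summed to between 293 and 559 CPM in Female Chow and between 42.6 and 491 CPM in Female HFHS, but to between 38 and 79.8 CPM in the males, so that this level moved with sex. By column code, 14 of the 25 were also lower on HFHS in females at an unadjusted p under 0.05 (3.99% of all genes were), and 0 were called.

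Type I interferons bind a receptor whose kinases activate transcription factors. STAT2 and IRF9 are parts of a complex that binds the interferon-stimulated response element (ISRE) in front of many antiviral genes. Interferon gamma acts on another element, the gamma-activated site (GAS), and drives IRF1, guanylate-binding proteins and the immunoproteasome. In muscle, these genes are known from inflammatory myopathies, where fibres show MHC class I and interferon-inducible proteins.

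Promoters are shown because the complex described above acts there. RefSeq promoters (rat genome GRCr8) were matched for 30 of the 39 genes. In the 250 bases before the listed start, the ISRE core, which is GAAA, any 2 bases and GAAA again (TTTC, any 2 bases and TTTC on the other strand), stood in 18 of the 30, which is 60.0%, against 3.29% of 27457 promoters in the table. The GAS core TTCNNNGAA, which reads the same on both strands and can overlap an ISRE match, stood in 8 of the 30 (26.7%), against 7.52% of all promoters. Among the 6 genes with the smallest p for the interaction of sex and diet that are in the table, Ifit3, Gbp2 and Eif2ak2 held an ISRE match, Irf1 held a GAS match, and Oasl and Mx1 held neither. The 4 with a match are shown 5′ to 3′ as the gene reads, with the matching letters in capitals. A match is a description of letters, not evidence of binding. The Ifit3 sequence is chr1:241527076-241527325 on the plus strand, Gbp2 is chr2:234005477-234005726 (plus), Eif2ak2 is chr6:21940904-21941153 (plus) and Irf1 is chr10:38417685-38417934 (plus).
Ifit3: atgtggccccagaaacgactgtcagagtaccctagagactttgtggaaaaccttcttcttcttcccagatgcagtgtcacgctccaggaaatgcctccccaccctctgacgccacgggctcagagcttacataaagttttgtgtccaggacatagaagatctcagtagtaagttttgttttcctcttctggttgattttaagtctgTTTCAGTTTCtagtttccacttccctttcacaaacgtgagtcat
Gbp2: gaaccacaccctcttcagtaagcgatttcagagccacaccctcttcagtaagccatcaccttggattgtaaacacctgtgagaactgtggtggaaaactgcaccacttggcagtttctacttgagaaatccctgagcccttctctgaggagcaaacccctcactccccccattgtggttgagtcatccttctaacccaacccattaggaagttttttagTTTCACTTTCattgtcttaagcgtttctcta
Eif2ak2: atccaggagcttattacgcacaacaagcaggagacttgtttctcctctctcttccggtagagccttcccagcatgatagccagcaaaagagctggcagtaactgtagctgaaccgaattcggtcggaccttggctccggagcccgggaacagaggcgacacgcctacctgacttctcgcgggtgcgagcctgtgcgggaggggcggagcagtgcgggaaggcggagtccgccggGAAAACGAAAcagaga
Irf1: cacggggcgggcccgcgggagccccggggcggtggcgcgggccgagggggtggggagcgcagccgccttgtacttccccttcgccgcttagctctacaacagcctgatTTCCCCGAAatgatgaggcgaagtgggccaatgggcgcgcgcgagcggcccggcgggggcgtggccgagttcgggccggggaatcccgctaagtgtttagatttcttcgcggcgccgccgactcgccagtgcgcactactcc
The ISRE matches began 44 (position -44), 31 (position -31) and 16 bases (position -16) before the start in Ifit3, Gbp2 and Eif2ak2, and the GAS match of Irf1 at position -142.

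Across the set, most fitted differences between HFHS and chow were above 0 in males and below 0 in females, but no member gene passed the test for diet in either sex. The fitted log2 difference between HFHS and chow was above 0 for 35 of the 39 genes in males (89.7%, against 46.0% of all genes tested), with a median of 0.31, against -0.012 over all genes. In females it was below 0 for 34 of 39 (87.2%, against 50.3% of all genes), with a median of -0.20, against -0.0010 over all genes. The interaction of sex and diet, the male minus the female diet difference, was above 0 for 36 of 39 (92.3%, against 48.6%), with a median of 0.49, against -0.0063. These genes moved together from rat to rat, so the 39 are not independent.

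By edgeR's quasi-likelihood test, with p adjusted by Benjamini and Hochberg over 13365 genes and a threshold of 0.05, 0 of the 39 genes were called for diet in females, where 0.0150% of all genes were called. In males 0 were called, against 0.0224% of all genes, and for the interaction 0, against 0% of all genes. DESeq2 also called 0 of the 39 in each of these 3 comparisons. No gene was lower on HFHS in females without overlap (0 of 39, against 0.352% of all genes). At an unadjusted p under 0.05, 3 genes, Isg15, Cmpk2 and Herc6, were lower on HFHS in females (7.69%, against 3.99% of all genes that were lower), 13 were higher in males (33.3%, against 4.0%) and 20 had a higher interaction (51.3%, against 2.38%). Counted in either direction, the female share was 7.69%, against 6.96% of all genes, and so near that of all genes. In males it was 35.9%, against 7.91%, and for the interaction 51.3%, against 4.88%. In counts simulated from these libraries, 94% of genes changed by a log2 of 1 were recovered for diet in females, 93% in males and 76% in the test of the interaction. Of genes changed by 0.5, 61% were recovered in each sex and 19% when the interaction was simulated. The changed genes, 100 of each size at once, had a mean of at least 1 CPM. Each gene was drawn on its own, so the simulation held neither genes that move together nor differences between rats in other cell types. With that many changed, the adjusted threshold is easier to pass than with the few genes called here. The rates are averages that need not hold for the 39 genes: Ifit3, at 1.03 in males with an SE of 0.30, did not pass (adjusted p = 0.435 by edgeR).

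**Figure D1:**
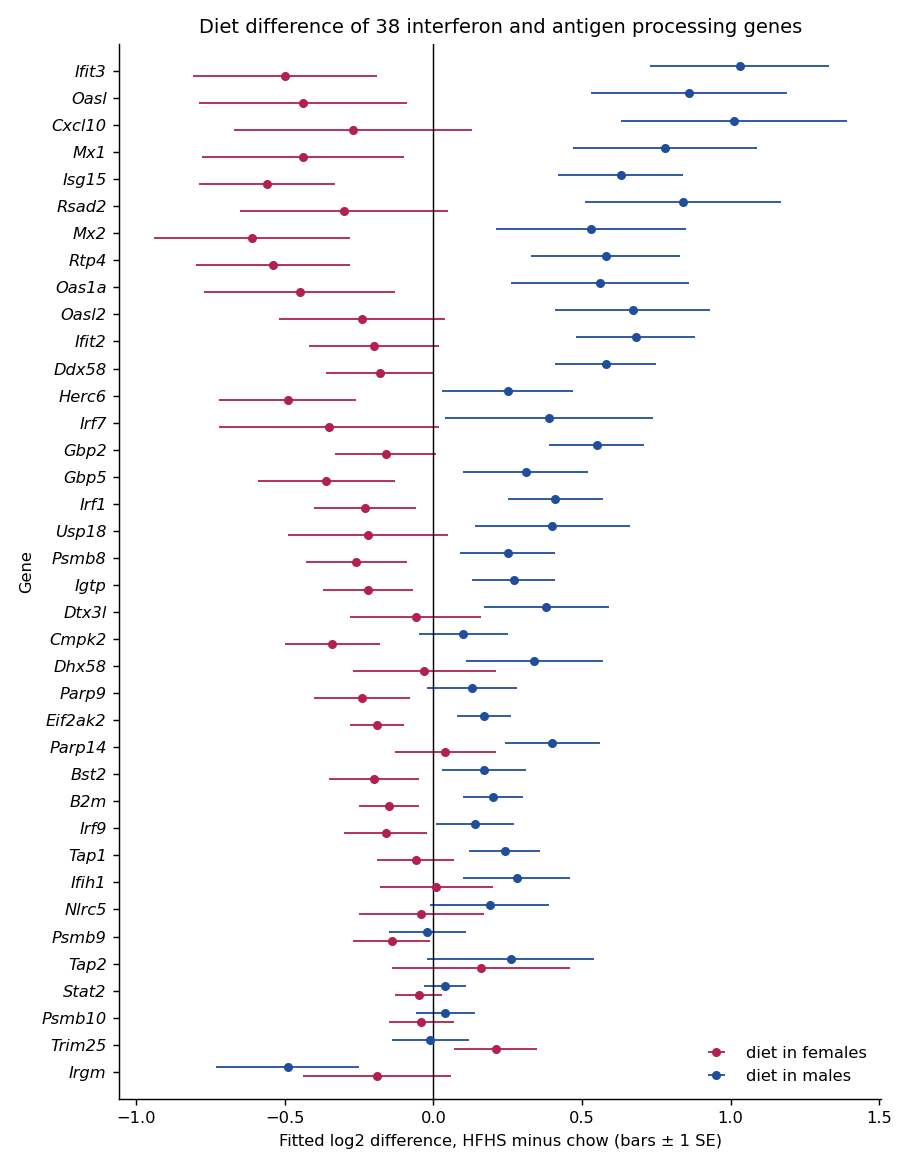
Fitted log2 difference between HFHS and chow (x axis) for 38 genes (y axis, ordered by the interaction; Ifit1 is left out because it was near 0 counts in most rats), in females (red) and males (blue), with bars of 1 SE. Most blue points lie to the right of 0 and most red points to the left, Ifit3 at 1.03 and -0.50 at the top, and no gene passed the adjusted test for diet.

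The levels behind these medians were carried by some rats of each group. For each rat, the median over the 39 genes of its log2 level minus the mean over all rats was 0.631, 0.467 and 0.327 in Male HFHS 101, 102 and 103, but -0.116, -0.092 and 0.0966 in 104, 105 and 106. Rats 101, 102 and 103 thus lay above every other rat, and rats 104, 105 and 106 lay among the Male Chow rats, which ranged from -0.415 (rat 115) to 0.143 (rat 112). Rat 101 had the highest level of all 23 rats for 26 of the 39 genes. In Female HFHS the values ran from -0.621 (rat 225) and -0.448 (rat 202) to 0.248 (rat 209), and rat 225 had the lowest level of all for 14 genes. Female Chow rats lay between -0.0125 and 0.267. The summed CPM of the 39 genes was from 450 to 515 CPM (median 469) in Female Chow, 361 to 500 in Female HFHS (418), 347 to 514 in Male Chow (444) and 448 to 688 in Male HFHS (502).

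**Figure D2:**
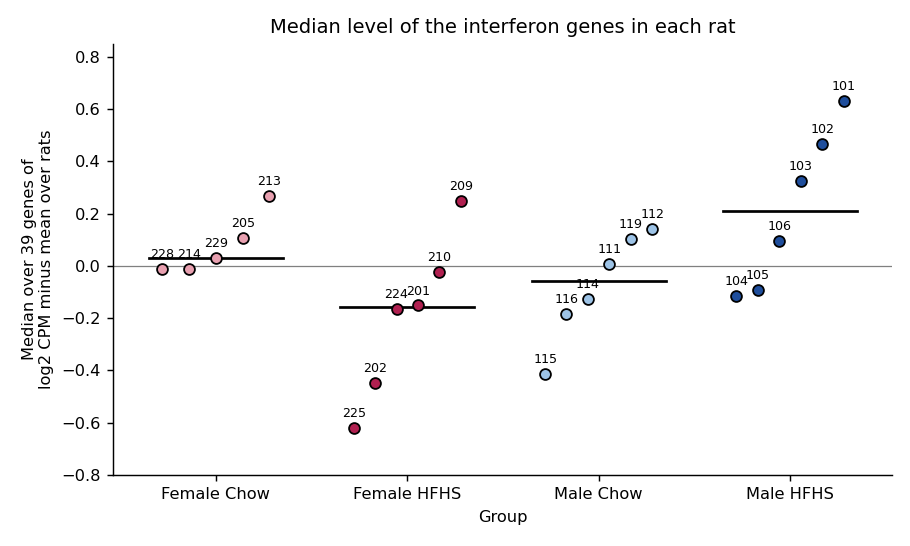
Median over 39 genes of each rat's log2 CPM minus the gene's mean over 23 rats (y axis), by group (x axis); points are rats with their numbers and lines are group medians. Male HFHS rats 101, 102 and 103 stand above all others and Female HFHS rats 225 and 202 are the lowest.

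Leaving out each rat in turn kept the median diet difference between -0.295 and -0.156 in females and between 0.236 and 0.431 in males. With the diets of the titles, the female median was 0.017 with 20 of 39 genes above 0, and without the 3 conflicting rats it was -0.15 with 9 above 0. At an unadjusted p under 0.05 in either direction, there was 1 gene for diet in females with the title diets (2.56%, against 13.5% of all genes). Without the 3 rats there were 0 (0%, against 9.63%), in place of 3, and both shares were below those of all genes. The interaction median was 0.24 with the title diets, with 32 of 39 genes above 0. There 6 genes had an unadjusted p under 0.05 (15.4%, against 14.4% of all genes), a share near that of all genes. Without the 3 rats the interaction median was 0.39, with 35 genes above 0, and 10 genes had such a p (25.6%, against 9.41%). The lower female levels on HFHS therefore depended on which label gives the diet, while the male median was 0.31 and 0.32 in the same fits.

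Other cell types were read beside this split, since in bulk muscle fewer cells of a type and less RNA per cell cannot be told apart. Leukocyte markers (18 of 20 listed genes tested) summed to 60.2 to 144 CPM in Female Chow, 121 to 166 in Female HFHS, 93.3 to 127 in Male Chow and 101 to 151 in Male HFHS. Rats 101 to 103 had 116, 107 and 149 CPM of them and rats 104 to 106 had 101, 108 and 151 CPM, so the sums overlapped. With the leukocyte level in the model the male median was 0.34 and the interaction median 0.48. With the hepatocyte level in the model the diet median was -0.31 in females and 0.27 in males, and the interaction median 0.58. In that fit 7 genes had an unadjusted p under 0.05 for diet in females (17.9%, against 4.60% of all genes). T and NK cell markers summed to at most 11.4 CPM, with Cd3d, Cd3g, Cd8b and Gzmb at 1 count per rat or less on average, and plasmacytoid dendritic cell markers to between 8.17 and 12.9 CPM. Of the Schwann cell markers (7 of 7 tested), 0 had an unadjusted p under 0.05 for diet in males (7.91% of all genes did). They summed to 712, 745 and 456 CPM in rats 101 to 103 and to 82.7, 97.6 and 114 CPM in rats 104 to 106. The next highest sums were 408 CPM in rat 115, 404 in 209, 376 in 202 and 328 in 225, of which 115, 202 and 225 had the lowest interferon medians. Fibroblast markers (8 of 9 tested) summed to 648 to 836 CPM in Male Chow and 792 to 1604 CPM in Male HFHS. Rats 101 to 103 had 977, 834 and 1604 CPM of them and rats 104 to 106 had 1000, 792 and 1322 CPM, so these sums overlapped. At an unadjusted p under 0.05, 3 of the 8 genes were higher on HFHS in males (4.0% of all genes were), and 0 were called. The collagen gene Col1a1 among them differed by a log2 of 1.04 (SE 0.28, adjusted p = 0.371). Of 12 endothelial markers tested, 1 was called for diet in males (0.0224% of all genes were), and the median of the 12 was 0.09. It was the junction gene Cldn5, higher on HFHS by a log2 of 1.00 (SE 0.18, adjusted p = 0.0455), at 34.3 ± 9.98 against 17.1 ± 1.43 CPM (SD, n = 6 each). The endothelial sums overlapped, at 485 to 594 CPM in Male Chow and 539 to 664 CPM in Male HFHS. Skeletal muscle markers summed to 231992 to 236213 CPM in rats 101 to 103 and 254696 to 275029 CPM in 104 to 106. The part of these levels in the result was not tested.

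Of the roles with more than 1 gene, the antiviral effectors had the diet medians farthest from 0. Of 13 genes, 12 had a fitted log2 above 0 for diet in males (46.0% of all genes did), with a median of 0.58. In females 12 had one below 0 (50.3% of all genes did), with a median of -0.34, and the interaction median was 1.01. The female and interaction values of the roles are by column code only. Ifit2, whose protein binds viral RNA and blocks translation, stood at 9.50, 10.2, 11.0, 12.8 and 13.6 CPM in the Female Chow rats. It ranged from 5.38 to 14.8 CPM (median 8.94) in Female HFHS, from 10.7 to 23 CPM (median 13.7) in Male Chow and from 17.7 to 28.7 CPM (median 23.4) in Male HFHS. Every Male HFHS rat was above every Female HFHS rat and every Female Chow rat, and Male Chow rat 119, at 23 CPM, lay inside the Male HFHS range. The log2 difference between diets in males was 0.68 (SE 0.20, adjusted p = 0.442) and in females -0.20 (SE 0.22, adjusted p = 0.878).

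Ifit3, a partner of the other Ifit proteins, was at 1.99, 3.38, 3.71, 4.22 and 4.23 CPM in Female Chow. It ranged from 1.34 to 5.04 CPM (median 2.14) in Female HFHS, from 1.29 to 3.94 CPM (median 2.84) in Male Chow and from 3.65 to 8.73 CPM (median 5.14) in Male HFHS. Only Male Chow rat 119, at 3.94 CPM, reached the Male HFHS range among the chow males, and rat 209 was the only Female HFHS rat within it. The diet difference was 1.03 in males (SE 0.30, adjusted p = 0.435) and -0.50 in females (SE 0.31, adjusted p = 0.768), and the interaction was 1.53 (SE 0.43, unadjusted p = 0.00178 by edgeR, adjusted p = 0.960). The Ifit genes stand side by side on chromosome 1 of rn6, the build of the deposited coordinates, Ifit2 at 252894663 to 252900726 and Ifit3 at 252906234 to 252911382. They are similar in sequence, and how reads shared between copies were counted is not given in the sources used here; the same holds for the Mx, Oas, Gbp and Irgm families.

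Rsad2, which encodes viperin, and its neighbour Cmpk2, a mitochondrial nucleotide kinase, lie together on chromosome 6 but differed in pattern. Rsad2 was at 1.63, 2.01, 2.04, 2.34 and 2.86 CPM in Female Chow, from 0.917 to 3.07 CPM (median 1.58) in Female HFHS, from 0.961 to 2.71 CPM (median 1.79) in Male Chow and from 1.5 to 6.08 CPM (median 3.13) in Male HFHS. Rats 101, 102 and 103, at 6.08, 3.94 and 3.82 CPM, were above all others and rats 104 to 106 were within the chow range. Its male diet difference was 0.84 (SE 0.33, adjusted p = 0.540). Cmpk2 was at 6.55, 6.91, 6.99, 7.24 and 8.08 CPM in Female Chow and from 4.53 to 7.66 CPM (median 5.41) in Female HFHS, a difference of -0.34 (SE 0.16, adjusted p = 0.708), while the male groups, at 4.15 to 8.97 and 6.03 to 7.98 CPM, overlapped throughout (log2 0.10, SE 0.15).

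Active 2',5'-oligoadenylate synthetases set off RNA decay and the Mx GTPases trap viral components. Oasl is named for its likeness to these synthetases, and whether its product has their activity was not examined here. Oasl was at 1.30, 1.55, 1.56, 1.84 and 1.94 CPM in Female Chow, from 0.531 to 2.16 CPM (median 1.2) in Female HFHS, from 0.714 to 2.67 CPM (median 1.17) in Male Chow and from 1.27 to 4.58 CPM (median 2.38) in Male HFHS. The male difference was 0.86 (SE 0.33, adjusted p = 0.532), with all 4 groups overlapping. Mx1 reached 11.9 and 7.80 CPM in Male HFHS 101 and 102 but 2.75 CPM in 104, and lay between 1.74 and 5.58 CPM in every other group. Mx2 was at 6.57, 6.79, 6.84, 7.23 and 14.9 CPM in Female Chow, from 3.26 to 9.22 CPM (median 4.88) in Female HFHS, from 3.16 to 8.59 CPM (median 6.47) in Male Chow and from 5.38 to 16.2 CPM (median 7.69) in Male HFHS. Its female difference of -0.61 (SE 0.33, adjusted p = 0.741) leaned on rat 213, at 14.9 CPM, and was -0.30 without that rat. Oas1a and Oasl2 had male differences of 0.56 and 0.67 and female differences of -0.45 and -0.24.

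Eif2ak2, which encodes the RNA-activated kinase PKR, varied little within groups. It was at 14.7, 15.7, 16.4, 17.2 and 17.4 CPM in Female Chow, from 11.5 to 15.9 CPM (median 14.5) in Female HFHS, from 14 to 18.9 CPM (median 14.4) in Male Chow and from 14.9 to 19.4 CPM (median 17.5) in Male HFHS. The groups overlapped, with a diet difference of 0.17 (SE 0.09) in males and -0.19 (SE 0.09) in females. Rtp4, whose product restrains flaviviruses in other mammals, was at 3.55, 3.91, 4.03, 4.06 and 4.80 CPM in Female Chow and from 1.27 to 4.36 CPM (median 2.72) in Female HFHS, with 4 of the 6 HFHS females below every chow female. In males it ranged over 2.72 to 3.91 on chow (median 2.91) and 2.93 to 8.07 on HFHS (median 3.98), and its interaction was 1.12 (SE 0.36, unadjusted p = 0.00509 by edgeR, adjusted p = 0.960). Bst2, or tetherin, which holds budding virions on the cell, was at 26.9, 27.1, 27.3, 31.6 and 33.8 CPM in Female Chow, from 22.6 to 30.4 CPM (median 24.9) in Female HFHS, from 21.5 to 37.8 CPM (median 30.2) in Male Chow and from 23.9 to 48.1 CPM (median 32.8) in Male HFHS. Its diet differences were 0.17 (SE 0.14) in males and -0.20 (SE 0.15) in females, and the groups overlapped.

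Ifit1 stood apart from the rest of the set. It had between 79 and 248 counts (2.59 to 6.72 CPM) in 8 rats and between 0 and 10 counts (at most 0.213 CPM) in the other 15, with 0 counts in 10 of these, where 3 counts would have been 0.0704 to 0.106 CPM. The rats with many counts were 1 of 5 Female Chow (229), 3 of 6 Female HFHS (201, 210 and 225), 3 of 6 Male Chow (111, 112 and 115) and 1 of 6 Male HFHS (103). No rat lay between, and the split followed neither sex nor diet, and rats 101 and 102, with the highest levels of most other genes, had 0 and 0.0374 CPM. Its fitted diet differences, 1.43 (SE 1.64) in females and -0.77 (SE 1.54) in males, were smaller than their SE.

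**Figure D3:**
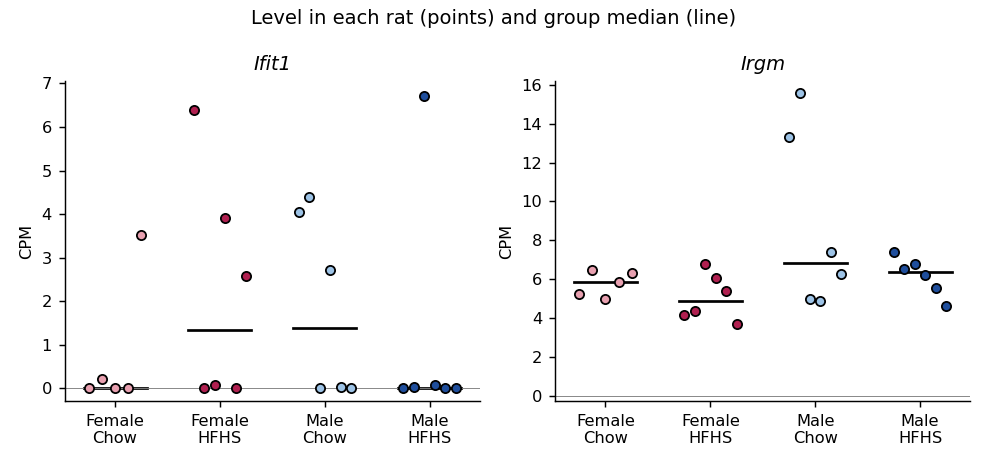
Ifit1 (left) and Irgm (right) in CPM (y axis) in each rat (points) with group medians (lines), by group (x axis). Ifit1 was between 2.59 and 6.72 CPM in 8 rats spread over the 4 groups and at most 0.213 CPM in the other 15; Irgm was at 13.3 and 15.6 CPM in 2 Male Chow rats and at most 7.41 CPM elsewhere.

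The ISG15 system, in which Isg15 is the ubiquitin-like protein, Herc6 its ligase in mice and Usp18 the protease that removes it, held the gene with the smallest p for the interaction. Isg15 was at 2.61, 2.69, 3.08, 3.51 and 4.31 CPM in Female Chow, from 1.57 to 3.16 CPM (median 2.13) in Female HFHS, from 1.59 to 2.99 CPM (median 2.55) in Male Chow and from 2.66 to 6.17 CPM (median 3.09) in Male HFHS. Rat 101, at 6.17 CPM, was far above the other Male HFHS rats, which overlapped the chow males, and 3 Female HFHS rats (201, 202 and 225) lay under 2 CPM. The diet difference was 0.63 in males (SE 0.21, adjusted p = 0.487), or 0.41 without rat 101, and -0.56 in females (SE 0.23, adjusted p = 0.666). Its interaction was 1.18 (SE 0.31, unadjusted p = 0.000881 by edgeR, adjusted p = 0.960). Herc6 was at 4.90, 5.03, 5.34, 5.90 and 7.45 CPM in Female Chow and from 2.84 to 5.81 CPM (median 3.99) in Female HFHS, a difference of -0.49 (SE 0.23, adjusted p = 0.709), and from 3.90 to 6.61 CPM (median 5.28) in Male Chow and from 3.97 to 9.34 CPM (median 5.49) in Male HFHS. Usp18 differed by 0.40 (SE 0.26) in males and -0.22 (SE 0.27) in females. The poly-ADP-ribose polymerase genes Parp9 and Parp14 and the Parp9 partner Dtx3l, on chromosome 11, differed by 0.13, 0.40 and 0.38 in males and by -0.24, 0.04 and -0.06 in females. Trim25, the ligase that activates RIG-I, went against the set, at -0.01 in males and 0.21 in females (SE 0.13 and 0.14).

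The sensors detect viral RNA in the cytosol. Ddx58, which encodes RIG-I, was at 1.41, 1.57, 1.60, 1.67 and 2.10 CPM in Female Chow, from 1.19 to 1.91 CPM (median 1.41) in Female HFHS, from 1.07 to 1.78 CPM (median 1.5) in Male Chow and from 1.35 to 2.80 CPM (median 2.27) in Male HFHS. Every Male HFHS rat but 105 was above every Male Chow rat, with a difference of 0.58 (SE 0.17, adjusted p = 0.435). Unlike most effectors, Ddx58 was highest in rat 106. Ifih1, which encodes MDA5, and the regulator Dhx58 differed by 0.28 (SE 0.18) and 0.34 (SE 0.23) in males and by 0.01 and -0.03 in females, and Ifih1 was highest in Female HFHS 202, at 9.59 CPM.

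Among the signal factors, Stat2 varied least within groups. It was at 17.1, 19.1, 19.7, 19.7 and 20.4 CPM in Female Chow, from 16.6 to 22.4 CPM (median 17.9) in Female HFHS, from 16.6 to 20.5 CPM (median 18.6) in Male Chow and from 17.4 to 20.6 CPM (median 19.1) in Male HFHS, with diet differences of 0.04 and -0.05 (SE 0.07 and 0.08). Irf9 differed by 0.14 (SE 0.13) in males and -0.16 (SE 0.14) in females. Irf1, the factor that interferon gamma induces, was at 10.9, 11.3, 11.9, 12.3 and 14 CPM in Female Chow, from 7.30 to 13.8 CPM (median 10.1) in Female HFHS, from 7.81 to 14.2 CPM (median 9.34) in Male Chow and from 10.5 to 17.1 CPM (median 12.7) in Male HFHS. Male Chow rats 111 and 114, at 14.2 and 10.6 CPM, lay inside the Male HFHS range, and the difference was 0.41 (SE 0.16, adjusted p = 0.540). Irf7, the factor that amplifies the response, spread most among the factors: 12.6, 15.1, 15.6, 16 and 20.7 CPM in Female Chow, from 7.33 to 20.7 CPM (median 11.2) in Female HFHS, from 9.72 to 29.6 CPM (median 13.5) in Male Chow and from 8.83 to 34.6 CPM (median 20.5) in Male HFHS. Rats 101, 102 and 103 were at 34.6, 24.4 and 27.1 CPM and rats 104 and 105 at 9.99 and 8.83 CPM, which left a male difference of 0.39 with an SE of 0.35. Irf7 overlaps Phrf1 and Cxcl10 overlaps Art3, on opposite strands, and whether counting used strand is not given in the sources used here.

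Among the GTPases, which attack vacuoles that hold pathogens, Gbp2 separated the male diets. It was at 5.71, 5.91, 6.04, 6.51 and 6.69 CPM in Female Chow, from 4.11 to 8.45 CPM (median 4.96) in Female HFHS, from 4.72 to 7.0 CPM (median 6.75) in Male Chow and from 7.31 to 12.6 CPM (median 9.05) in Male HFHS. The male groups did not overlap, the only such gene of the 39 (2.56%, against 0.359% of all genes higher on HFHS), and rat 209 was the only female within the Male HFHS range. The male difference was 0.55 (SE 0.16, unadjusted p = 0.00164 by edgeR, adjusted p = 0.406) and the female difference -0.16 (SE 0.17). Its neighbour Gbp5 was at 2.98, 3.06, 4.98, 5.09 and 5.59 CPM in Female Chow, from 2.04 to 4.21 CPM (median 3.38) in Female HFHS, from 2.58 to 5.52 CPM (median 4.76) in Male Chow and from 3.45 to 7.09 CPM (median 5.86) in Male HFHS, with overlap throughout and differences of 0.31 (SE 0.21) and -0.36 (SE 0.23). Igtp differed by 0.27 (SE 0.14) in males. Irgm was the only one of the 39 genes below 0 by more than its SE in males, at -0.49 (SE 0.24, adjusted p = 0.630), where Male Chow rats 111 and 112 stood at 13.3 and 15.6 CPM and all other rats at 3.67 to 7.41 CPM.

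**Figure D4:**
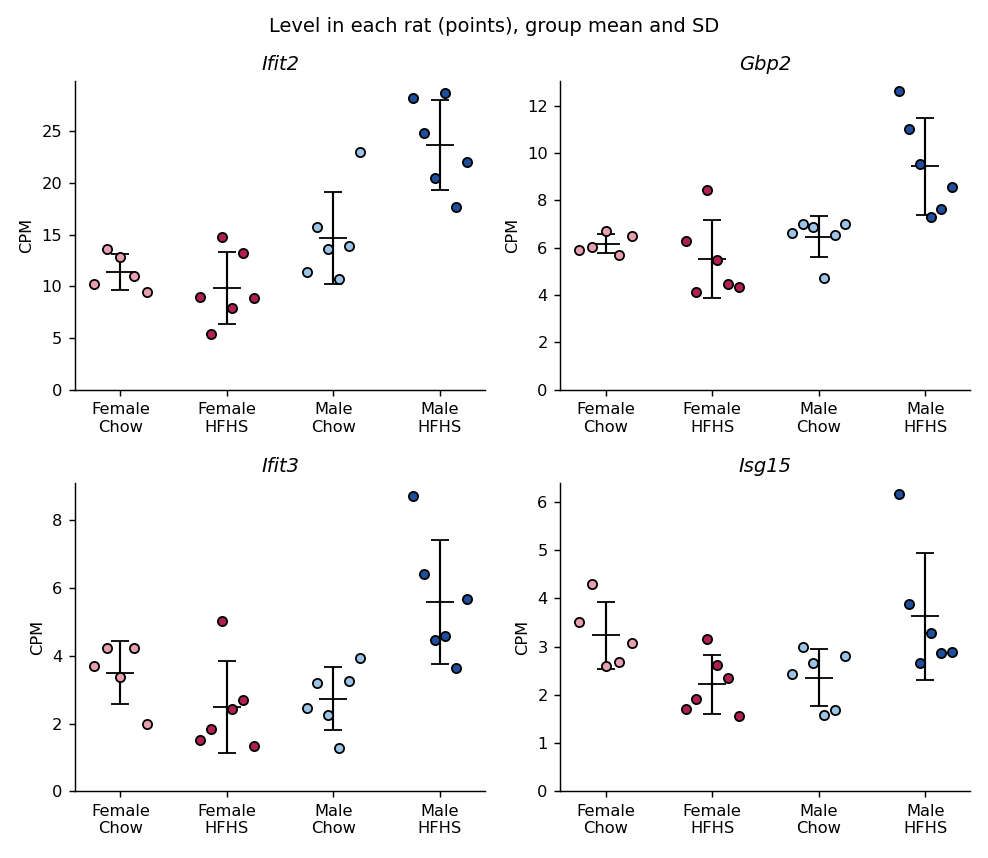
Ifit2, Gbp2, Ifit3 and Isg15 in CPM (y axes) in each rat (points) with the group mean and SD (bars), by group (x axes). The Male HFHS mean is the highest in each panel; for Ifit2 these rats lie at 17.7 to 28.7 CPM, above every female, and for Isg15 they overlap the other groups.

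Antigen processing genes had diet medians nearer 0 than the effectors, of 0.20 in males and -0.06 in females over 7 genes. B2m, the light chain of MHC class I, was at 208, 211, 212, 232 and 257 CPM in Female Chow, 185, 187, 187, 212, 215 and 226 CPM in Female HFHS, from 153 to 249 CPM (median 211) in Male Chow and from 199 to 283 CPM (median 222) in Male HFHS. The groups overlapped, with differences of 0.20 (SE 0.10, adjusted p = 0.644) in males and -0.15 (SE 0.10, adjusted p = 0.787) in females. Psmb8, Psmb9 and Psmb10, the catalytic subunits of the immunoproteasome, differed by 0.25, -0.02 and 0.04 in males and by -0.26, -0.14 and -0.04 in females. Tap1 and Tap2, the peptide transporter, differed by 0.24 and 0.26 in males, and the class I transactivator gene Nlrc5 by 0.19 (SE 0.20). Psmb9, Tap1, Psmb8 and Tap2 adjoin one another on chromosome 20 (rn6, 3973420 to 4009587).

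The chemokine gene Cxcl10, which draws T cells, was below 1 CPM in every rat. It was at 0.314, 0.374, 0.486, 0.553 and 0.555 CPM in Female Chow, from 0.0774 to 0.646 CPM (median 0.389) in Female HFHS, from 0.0824 to 0.462 CPM (median 0.367) in Male Chow and from 0.363 to 0.962 CPM (median 0.80) in Male HFHS. Rats 102 and 104, at 0.393 and 0.363 CPM, lay within the Male Chow range, and the difference was 1.01 (SE 0.38, adjusted p = 0.514).

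**Figure D5:**
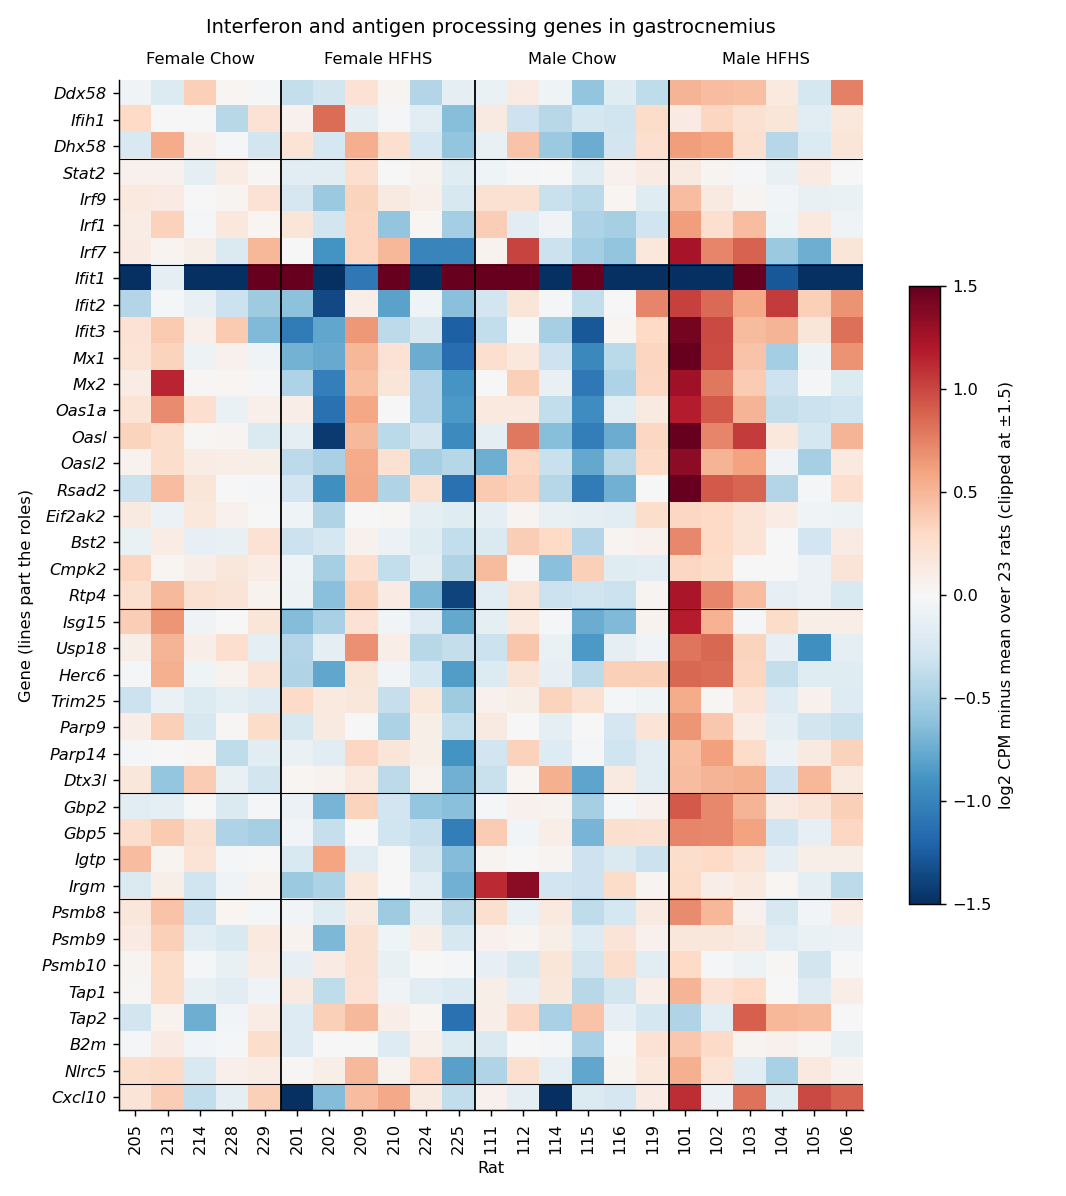
Log2 CPM minus the gene's mean over 23 rats (colour, clipped at ±1.5), for 39 genes (rows, parted by role) and 23 rats (columns, by group). Rats 101 and 102 are red in most rows and rats 225, 202 and 115 blue, while Ifit1, Irgm, Tap2 and Cxcl10 follow other rats.

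The genes were compared with each other within groups, as a description over 23 libraries that share depth and composition. Over 741 pairs, the deviations from group means had a median Pearson r of 0.434, and 678 pairs were above 0. With the median of the other 38 genes, r was 0.926 for Mx2, 0.913 for Rsad2, 0.911 for Oas1a and 0.899 for Mx1, and above 0.8 for 12 genes, all of them effectors, ISG15 system genes, the sensor Dhx58 or Gbp2. It was 0.623 for Irf1, 0.594 for B2m and 0.562 for Ifit2, and lowest for Igtp (0.222), Ifih1 (0.139), Tap2 (0.0491) and Ifit1 (-0.0610). Ifit2, the gene with the smallest p by sex, thus followed the others less closely than most effectors did, and rat 104, low for the set, had the highest Ifit2 level of all, at 28.7 CPM.

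Between the sexes on the HFHS diet, males were higher for 37 of the 39 genes (94.9%, against 49.0% of all genes), with a median log2 of 0.37, against -0.0045 over all genes. By edgeR, 3 of 39 genes passed (7.69%, against 4.83% of all genes), all higher in males. Ifit2 was higher by a log2 of 1.26 (SE 0.21, adjusted p = 0.00216), at 23.6 ± 4.38 CPM (SD, n = 6) in males and 9.86 ± 3.50 CPM (SD, n = 6) in females. It was the only one of the 39 whose groups did not overlap (2.56%, against 1.46% of all genes higher in males). Gbp2 was higher by 0.78 (SE 0.16, adjusted p = 0.00637), at 9.45 ± 2.07 against 5.51 ± 1.66 CPM. Ifit3 was higher by 1.18 (SE 0.30, adjusted p = 0.0254), at 5.59 ± 1.82 against 2.48 ± 1.36 CPM. At an unadjusted p under 0.05, 22 genes were higher in males (56.4%, against 9.08%), among them Isg15 (0.72, adjusted p = 0.0532), Oasl (1.10, adjusted p = 0.0577) and Gbp5 (0.70, adjusted p = 0.0610), which did not pass. In either direction, 7 genes had an unadjusted p under 0.05 with the title diets (17.9%, against 25.7% of all genes, so that the share was below that of all genes). Without the 3 conflicting rats 12 did (30.8%, against 21.2%), and with the hepatocyte level in the model 4 did (10.3%, against 13.2%). The medians in these fits were 0.27, 0.30 and 0.28.

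The Ifit3 call was lost without Female HFHS 201, 202, 210 or 225 or without Male HFHS 101 or 102, with an adjusted p between 0.0522 and 0.0693. It was also lost with the HFHS rats fitted alone (log2 1.19, adjusted p = 0.0558). With the title diets its adjusted p was 0.0752 and without the 3 conflicting rats 0.0837, while Ifit2 and Gbp2 passed in both. Without Female HFHS 209, 8 genes passed (4.34% of all genes did), and DESeq2 called 10 (5.85% of all genes). With the hepatocyte level in the model 0 passed, with adjusted p of 0.0603 for Ifit2 (log2 1.14), 0.165 for Gbp2 (0.62) and 0.381 for Ifit3 (0.74); in 9 of the 11 females that level exceeded every male, so the level and sex largely cannot be told apart. Endothelial markers (12 of 13 listed genes tested) were called higher in males for 6 genes, where 4.83% of all genes were called in either direction. Among them were Kdr at a log2 of 0.61 and Cdh5 at 0.36. The endothelial markers summed to 423 to 530 CPM in Female HFHS and 539 to 664 CPM in Male HFHS. These calls are by column code and without the hepatocyte level, with which 0.898% of all genes were called. Among neutrophil and mast cell markers (9 of 12 tested), 2 were called lower in males on HFHS, Tpsab1 and Tpsb2, where 4.83% of all genes were called. Averaged over diets 4 were, these with Cma1 and Fcer1a, where 8.97% of all genes were called. All 4 are mast cell genes, and 3 of the 9 genes were above 0 in both comparisons. The part of these cell types in the result was not tested.

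On chow, males were lower for 29 of 39 genes (74.4%, against 49.3% of all genes), with a median of -0.13. With the title diets 18 were above 0 and the median was -0.0017, without the 3 conflicting rats 10 were above 0 (median -0.13), and with the hepatocyte level in the model 5 were (median -0.33). By edgeR 0 passed, against 1.72% of all genes, and DESeq2 called 0. No gene was lower in males at an unadjusted p under 0.05 (0 of 39, against 6.56% of all genes) or without overlap (0 of 39, against 1.62%), and 2 had an unadjusted p under 0.05, Irgm (0.60) and Trim25 (0.31), both higher in males. In either direction, 1 gene had such a p with the title diets (2.56%, against 13.8% of all genes) and 0 without the 3 conflicting rats (0%, against 12.7%). With the hepatocyte level in the model 6 did (15.4%, against 6.26%). Averaged over the diets, males were higher for 34 of 39 genes (87.2%, against 50.0% of all genes), and Ifit2 (0.81, SE 0.15, adjusted p = 0.00117) and Gbp2 (0.42, SE 0.11, adjusted p = 0.0211) passed, 5.13% of the 39, against 8.97% of all genes. The Gbp2 call was lost without the 3 conflicting rats (log2 0.34, adjusted p = 0.0878). With the hepatocyte level in the model both were lost, at 0.66 for Ifit2 and 0.21 for Gbp2 (adjusted p = 0.409 and 0.768), and 19 of the 39 genes were above 0, with a median of -0.00073. Both sex comparisons on a diet share rats with the diet comparisons above, so their directions are not separate evidence.

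The rest of the pathway was read from lists written from general knowledge. Of the interferon genes listed, Ifna2, Ifnb1, Ifng and Ifnk averaged at most 1 count per rat. The receptor gene Ifnar2 was higher in males on HFHS by a log2 of 0.42 (SE 0.10, adjusted p = 0.0177), at 7.94 ± 0.726 against 5.93 ± 0.970 CPM, and Ifnar1 by 0.17 (SE 0.05, adjusted p = 0.0462). Among 6 receptor and ligand genes tested, these 2 passed for sex on HFHS, against 4.83% of all genes, and 0 passed for diet. Kinases and transcription factors such as Jak1 and Tyk2 had 0 calls for diet or for sex on either diet among 9 tested; averaged over diets Jak1 was higher in males by 0.15 and Irf3 lower, at -0.19 (adjusted p = 0.0216 and 0.0205). Sensors and adaptors (9 tested) and negative regulators (10 tested) had 0 calls in all 6 comparisons, with at most 1 gene of each list at an unadjusted p under 0.05 in any of them.

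Of 44 other interferon-stimulated genes tested, 38 had a fitted log2 above 0 for diet in males (46.0% of all genes did), with a median of 0.21. At an unadjusted p under 0.05, 10 were higher (4.0% of all genes were), but 0 passed. In females 14 of the 44 were above 0, with a median of -0.03, where 50.3% of all genes were below 0, and the interaction median was 0.31. The female and interaction values of this list are by column code only. Lgals9, which encodes galectin-9, was at 7.72 to 11.2 CPM in Male Chow and 10.4 to 20.2 CPM in Male HFHS (log2 0.60, SE 0.16, adjusted p = 0.361). For sex on the HFHS diet 2 of the 44 passed, where 4.83% of all genes did, so the share was near that of all genes. They were the ISG15-conjugating enzyme gene Ube2l6 (0.60, SE 0.18, adjusted p = 0.0494) and Slfn5 (0.32, SE 0.09, adjusted p = 0.0416), both higher in males.

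The constitutive proteasome was read beside the immunoproteasome. Psmb7, the constitutive counterpart of Psmb10, was lower in males on HFHS by a log2 of -0.25 (SE 0.05, adjusted p = 0.00971), at 163 ± 6.94 against 193 ± 12.5 CPM, and all 3 constitutive subunit genes had fitted values below 0 in each of the 6 comparisons. Psmb8, the counterpart of Psmb5, was at 0.40 (SE 0.16, adjusted p = 0.155) on HFHS. Of 17 MHC class I and peptide loading genes, 1 passed for sex on HFHS, where 4.83% of all genes did. It was RT1-T24-4 (0.52, SE 0.15, adjusted p = 0.050, just under the threshold), a member of a family of near-identical copies. MHC class II genes (8 tested) had 0 calls in all 6 comparisons, with a median of 0.18 for diet in males and -0.01 in females.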

How the data were processed

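Gastrocnemius RNA of 23 rats was sequenced from poly-A libraries. The authors used fastp for trimming, STAR 2.7.6a for alignment (rn6) and SeqMonk for gene counting; the labels' processing notes also name DESeq2 1.30.1. The deposited table holds raw counts, not normalized. Rows without a gene name (16, at most 0.000294% of a rat's counts) were left out. The main test was that of edgeR 4.0.16 in R 4.3.3 (filterByExpr by group, TMM, 1 model of 4 group means, robust quasi-likelihood F tests, Benjamini-Hochberg over 13365 genes, threshold 0.05). CPM are TMM-scaled; log2 levels used a prior count of 2. Only the spread between rats enters the p values. DESeq2 1.42.0 and limma 3.58.1 (voom), RLE scaling, other filters, title diets, marker covariates, a title-number block and leaving out each rat were alternatives. All 40 genes may be named; values per rat are given for genes called in any comparison, the 8 with the smallest p for each diet comparison and the interaction, and the 6 with the highest mean CPM, and up to 4 genes of each other list with the smallest p over the 4 groups. Ube2l6, Mx1 and the outlying genes Ifit1 and Irgm were added after their values were seen. The genes and lists were chosen with earlier results of these data known. Title numbers did not pair rats: same-numbered rats had a median correlation of -0.0294 (32 pairs). The method was tested on simulated data.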

Additional observations from a re-analysis of the deposited data

Results flagged for a closer look

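Within a group of 5 or 6 rats, 12 of 164 sets of values held a rat farther from its neighbours than Dixon's 95% limit allows, and chance gives about 1 in 20. Ifit1 stood out in Female Chow 229, at 3.53 CPM against at most 0.213 CPM in the others, and in Male HFHS 103, at 6.72 CPM against at most 0.0681 CPM. Female Chow 213 was high for Mx2, at 14.9 CPM against at most 7.23 CPM, and for Oasl2, at 5.66 CPM against at most 5.07 CPM. Male Chow 112 was high for Irf7, at 29.6 CPM against at most 16.4 CPM, and for Parp14, at 4.69 CPM against at most 3.6 CPM. Male HFHS 101 was high for Isg15, at 6.17 CPM against at most 3.89 CPM, and for Irf9, at 13.3 CPM against at most 10.6 CPM. In Female HFHS, Ifih1 was high in rat 202, at 9.59 CPM against at most 5.60 CPM, and Ifit3 in rat 209, at 5.04 CPM against at most 2.71 CPM. Low values were those of Gbp2 in Male Chow 115, at 4.72 CPM against at least 6.55 CPM, and of Cxcl10 in Male Chow 114, at 0.0824 CPM against at least 0.343 CPM.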

How the results depend on the processing

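Under each of the alternatives, 0 of the 39 genes were called for diet in females, for diet in males, for the interaction and for sex on chow. For sex on HFHS, DESeq2 called 10 of the 39, the hepatocyte marker covariate left 0, and leaving out 1 rat gave 2 to 8 (8 without Female HFHS 209). Averaged over diets, 1 was called without the 3 conflicting rats, 0 with the hepatocyte covariate, and 2 without any single rat. Over all genes, calls for diet in females were 1 with RLE factors, either other filter, either marker covariate or the block, 6 with DESeq2, 9 with voom, 0 with the sex fitted alone, and 1 to 3 leaving out a rat. For diet in males they were 0 with the mean count filter, title diets, hepatocyte covariate, block or sex alone, 25 with DESeq2, 17 with voom, 1 with the leukocyte covariate, and 0 to 9 leaving out a rat. The interaction had 1 with DESeq2, 5 with title diets, and 0 to 1 leaving out a rat. Sex on chow had 150 with the 1 CPM filter, 359 with DESeq2 and 12 with the hepatocyte covariate. Sex on HFHS had 1013 with DESeq2, 1355 with title diets, 120 with the hepatocyte covariate, 378 with the block, and 379 to 769 leaving out a rat. Averaged over diets, the hepatocyte covariate left 40. With title diets the female differences of Rtp4 and Gbp5 turned to 0.10 and 0.143. The causes were not tested. The numbers in the titles do not pair the rats, and with them as a replicate block the median of the 39 genes was -0.162 for diet in females, 0.286 in males and 0.427 for the interaction. With the block the Ifit3 call for sex on HFHS was lost (log2 1.13, adjusted p = 0.0988).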
